A study of Mus musculus with 6 samples.

Results

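The genes described were 10 components of the circadian clock, found by their symbols among the 21776 genes of the table. They fell into the morning-phase genes *Arntl*, *Npas2* and *Clock* and 7 genes of the opposite phase, namely *Per1*, *Per2*, *Per3*, *Nr1d1*, *Nr1d2*, *Dbp* and *Tef*. All 10 were in the table and all 10 passed the filter on low values, a mean of at least 10 over all hearts, which 13753 genes passed. Expression was measured by strand-specific total RNA sequencing in 3 heart samples of mice homozygous for a disrupted *Trdn-as* locus (KO) and 3 of wild-type mice (WT). The *Trdn-as* transcript is non-coding and runs antisense to *Trdn*, the gene of triadin, which belongs to the calcium release complex of muscle. The KO allele was made in mouse embryonic stem cells by Cas9-directed insertion of a polyadenylation signal into the first *Trdn-as* exon, and the mice were bred onto C57BL/6. The insertion is in the germ line and so is carried by every cell of the animal, although the record of the data describes the deficiency as one of cardiomyocytes. The age and sex of these animals and the hour at which each heart was taken are not given in the sources used here. Because clock genes change over the day, genotype and hour of collection cannot be told apart in this design wherever the hours differed. Each library is from a separate heart.

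The clock of mammalian cells is a feedback loop of transcription. ARNTL (also called BMAL1) pairs with CLOCK or its relative NPAS2, binds E-box sequences and switches on the genes of the PER and CRY proteins, which return to the nucleus and shut their own activators down. The same activators drive NR1D1 and NR1D2 (REV-ERBα and REV-ERBβ), nuclear receptors that repress *Arntl* and *Npas2* through ROR elements. They also drive DBP and TEF, leucine zipper factors that act on D-box sequences and carry the rhythm to output genes. In the mouse heart the mRNAs of *Arntl* and *Npas2* are therefore high when those of *Nr1d1*, *Dbp* and the *Per* genes are low, while *Clock* itself has a shallow rhythm. The question addressed was where each heart lay between these opposed sets and whether KO and WT hearts differed.

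The 6 libraries had similar depth and the genotype was as labelled. The estimated number of counted reads was 2.59 to 3.62 M per library. *Trdn-as*, listed as AC157017.2 (chromosome 10, 33222345 to 33256418, minus strand, GRCm38), stood at 1, 0 and 1 normalised reads in the KO hearts and at 690, 773 and 688 in the WT hearts. *Trdn* had a mean of 2474 ± 86.0 (SD, n = 3) in KO and 1533 ± 14.4 (SD, n = 3) in WT. All hearts had abundant cardiomyocyte transcripts, with a summed count of 6 markers of 90998 to 95261 in KO and 94582 to 115997 in WT. All 6 markers had a lower estimate in KO (log2 fold change -0.17 to -0.15), 4 with an unadjusted p under 0.05, 1 without overlap and 0 with an adjusted p under 0.05 in limma. The gene without overlap was *Ryr2*, named after its values were seen. The shares of all tested genes for the first 2 counts were 5.74% and 9.07%. The sums of 5 fibroblast, 4 endothelial and 4 smooth muscle markers varied by 1.13-, 1.16- and 1.14-fold between hearts. The sum of 5 red blood cell transcripts varied by 2.80-fold, from 151 in WT replicate 2 to 423 in WT replicate 1, and that of 4 macrophage markers by 1.57-fold. KO replicate 1 had the lowest sum of the 6 hearts for the cardiomyocyte (90998), fibroblast (3262), endothelial (3357), smooth muscle (645) and macrophage (371) lists. In whole hearts, fewer cells of a type and less RNA per cell cannot be told apart. The cardiomyocyte sum was highest in WT replicate 1, the library with the fewest estimated reads (2.59 M). It was lowest in KO replicate 1, the library with the most (3.62 M). The part of depth and of duplicate removal in these sums was not tested.

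The promoter windows below are shown because they hold letter matches to the elements by which the loop is known to act on its genes. Each holds 250 bases before and 50 bases after a RefSeq transcript start (GRCm38.p6), written 5′ to 3′ on the strand of the gene. Capitals mark exact matches, searched on both strands, to the E-box CACGTG, the D-box TTATGTAA and the ROR element core AGGTCA. Of 32851 such windows of mouse genes, 7.15% held the E-box, 0.938% the D-box and 16.3% the ROR core. A window was found for 9 of the 10 members and for *Ciart*, an inhibitor of ARNTL-driven transcription described further on. No window was found for *Per2*.
Arntl chr7:113207261-113207560 (plus strand): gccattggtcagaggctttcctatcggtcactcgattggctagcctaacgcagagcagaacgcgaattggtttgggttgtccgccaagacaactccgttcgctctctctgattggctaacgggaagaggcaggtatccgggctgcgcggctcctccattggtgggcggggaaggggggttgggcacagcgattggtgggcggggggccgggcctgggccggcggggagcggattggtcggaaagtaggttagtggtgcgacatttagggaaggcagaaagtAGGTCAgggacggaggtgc
Per1 chr11:69098699-69098998 (plus strand): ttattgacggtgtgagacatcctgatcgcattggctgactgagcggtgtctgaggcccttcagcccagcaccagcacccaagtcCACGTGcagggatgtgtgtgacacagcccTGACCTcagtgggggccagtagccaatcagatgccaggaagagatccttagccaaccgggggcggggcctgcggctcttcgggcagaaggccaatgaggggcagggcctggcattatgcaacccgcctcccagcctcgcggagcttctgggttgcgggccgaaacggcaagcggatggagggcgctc
Per3 chr4:151044616-151044915 (minus strand): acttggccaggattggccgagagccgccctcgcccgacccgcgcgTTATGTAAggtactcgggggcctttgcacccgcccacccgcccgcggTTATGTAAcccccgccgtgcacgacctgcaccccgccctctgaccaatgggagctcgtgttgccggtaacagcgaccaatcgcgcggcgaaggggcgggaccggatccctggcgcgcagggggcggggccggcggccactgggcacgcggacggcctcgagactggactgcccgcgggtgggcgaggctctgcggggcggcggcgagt
Tef chr15:81811164-81811463 (plus strand): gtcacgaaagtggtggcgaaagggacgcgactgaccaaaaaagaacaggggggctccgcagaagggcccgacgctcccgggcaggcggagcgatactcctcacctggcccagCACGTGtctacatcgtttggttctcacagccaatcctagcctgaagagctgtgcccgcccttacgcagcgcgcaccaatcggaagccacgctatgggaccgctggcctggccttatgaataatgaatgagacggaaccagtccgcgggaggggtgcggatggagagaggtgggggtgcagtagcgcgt
Ciart chr3:95882179-95882478 (minus strand): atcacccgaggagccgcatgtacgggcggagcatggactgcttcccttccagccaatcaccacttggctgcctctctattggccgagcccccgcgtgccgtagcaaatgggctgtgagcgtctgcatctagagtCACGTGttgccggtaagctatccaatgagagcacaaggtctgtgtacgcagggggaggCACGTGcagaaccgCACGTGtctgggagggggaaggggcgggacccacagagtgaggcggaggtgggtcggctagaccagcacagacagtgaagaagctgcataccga

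*Arntl* and *Per1* each have 2 listed starts, and the other window of each held none of these letters. The *Arntl* window shown held 1 ROR core, 31 bases after the start. The *Per1* window shown held an E-box that begins 166 bases before the start and, as TGACCT on the strand printed, a ROR core 137 bases before it. The *Per3* window held 2 D-boxes, 205 and 158 bases before the start, and no E-box of these letters. *Tef* had an E-box 138 bases before this start and another 127 bases before its second listed start. The *Ciart* window held 3 E-boxes, 116, 58 and 44 bases before the start. A ROR core also lay 77 bases before the start of *Nr1d2* and 119 bases before 1 of the 3 listed starts of *Clock*. The windows of *Npas2*, *Dbp* and *Nr1d1* held none of these letters, which says nothing of elements elsewhere in those genes.

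Levels differed widely between the members. Per kilobase of exon, the mean normalised read count over the 6 hearts was highest for *Nr1d2* (162 ± 5.85, SD, n = 6) and *Nr1d1* (156 ± 19.3, SD, n = 6). These neighbours were not separated, since *Nr1d2* was above *Nr1d1* in 3 of 6 hearts. *Dbp* followed at 107 ± 12.6 per kilobase (SD, n = 6), below *Nr1d1* and above *Tef* in every heart without overlap. *Tef* and *Clock* were close to each other, at 70.8 ± 5.92 and 68.6 ± 3.83 per kilobase (SD, n = 6), with *Tef* the higher in 5 of 6 hearts. *Per3* had 45.5 ± 5.30, *Per1* 34.2 ± 7.54 and *Per2* 25.8 ± 5.58 per kilobase (SD, n = 6). The order *Per3*, *Per1*, *Per2* held within each of the 6 hearts although the ranges of neighbours overlapped. The lowest were the activators *Npas2* with 10.2 ± 1.71 and *Arntl* with 9.30 ± 1.52 per kilobase (SD, n = 6), which were not separated.

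Comparing the genotypes, no clock gene passed the test, and the differences were small. With limma and Benjamini-Hochberg adjustment over all tested genes, 0 of 10 members had an adjusted p under 0.05, against 4 of 13753 genes (0.0291%), a number that ranged from 2 to 32 when single libraries were left out. At an unadjusted p under 0.05 there were 2 members, *Per3* and *Dbp*, both higher in KO, against 790 of all genes (5.74%), and limma-voom gave 3 members, with 0 at an adjusted p under 0.05. Only 1 member, *Dbp*, had KO and WT values that did not overlap, against 1248 of all genes (9.07%). The log2 fold changes of the members, KO minus WT, lay between -0.32 and 0.21, with a median of 0.04 against 0.00 for all tested genes. All 3 morning-phase genes had a negative estimate and 6 of the 7 opposite-phase genes a positive one, all 10 with adjusted p-values of 0.851 to 0.998 in limma.

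**Figure D1:**
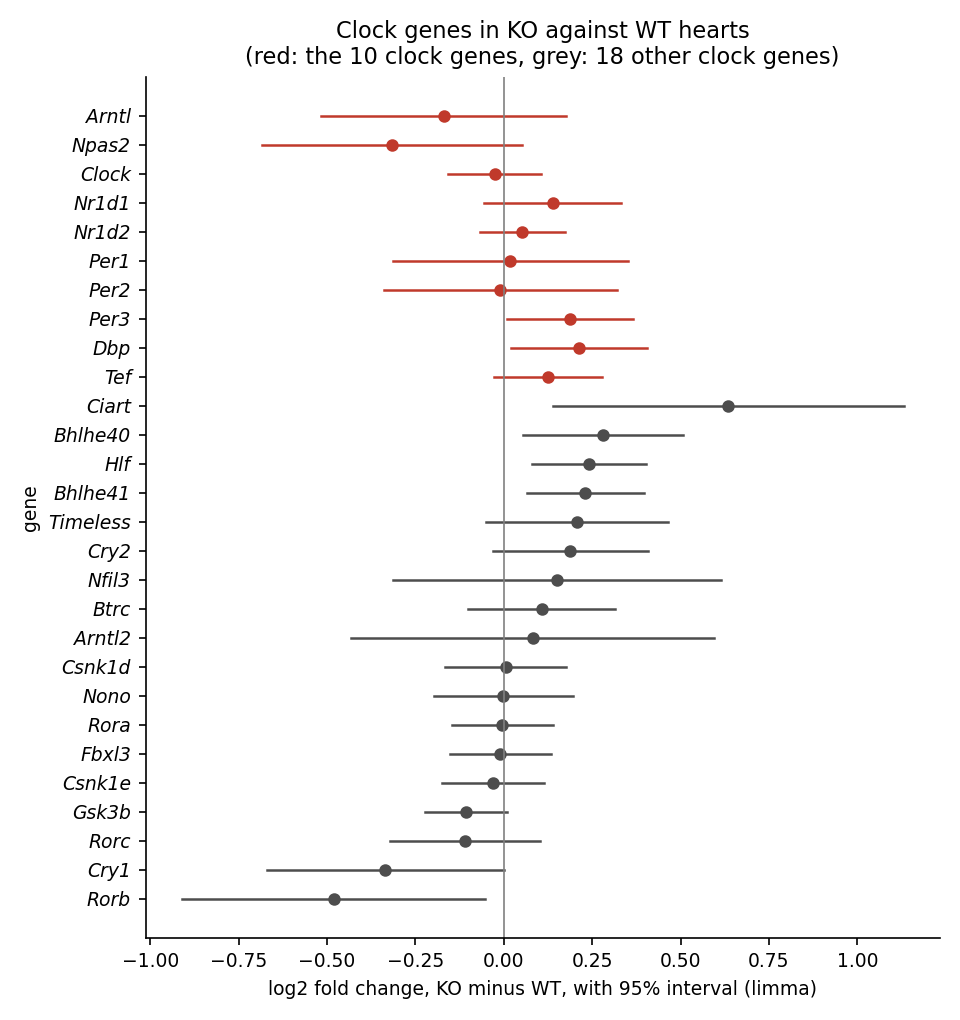
The log2 fold change of KO against WT is plotted for each of the 10 members and the other listed clock genes, as limma estimates with 95% intervals. Of the members only *Per3* and *Dbp* have intervals that leave out 0, and both lie above it.

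*Arntl* encodes the partner without which the loop stops (ENSMUSG00000055116, chromosome 7, 113207465 to 113314126, plus strand, GRCm38). The KO hearts held 50, 80 and 69 normalised reads and the WT hearts 78, 78 and 65. The lowest heart was KO replicate 1, and the other 5 lay between 65 and 80, so the groups overlapped. KO minus WT, the log2 difference was -0.17 (SE 0.17, limma adjusted p = 0.932), with a 95% interval of -0.52 to 0.18. Without KO replicate 1 the estimate was 0.017.

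*Npas2*, the relative of *Clock* (ENSMUSG00000026077, chromosome 1, 39194212 to 39363236, plus strand), had counts of 53, 42 and 36 in KO and 58, 51 and 53 in WT. KO replicates 2 and 3 were the lowest hearts, and KO replicate 1 lay among the WT values. Its log2 fold change was -0.32 (SE 0.18, limma adjusted p = 0.869), the most negative of the members, with a 95% interval of -0.68 to 0.05. The heart lowest for *Npas2*, KO replicate 3, was not the heart lowest for *Arntl*.

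*Clock* (ENSMUSG00000029238, chromosome 5, 76209868 to 76304792, minus strand) had counts of 895, 987 and 917 in KO and 899, 928 and 1025 in WT. Its values overlapped, with both the lowest heart (KO replicate 1) and the highest (WT replicate 3) close to the rest. The estimate was -0.03 on the log2 scale (SE 0.06, limma adjusted p = 0.980), and its 95% interval of -0.16 to 0.11 is among the narrowest of the members.

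**Figure D2:**
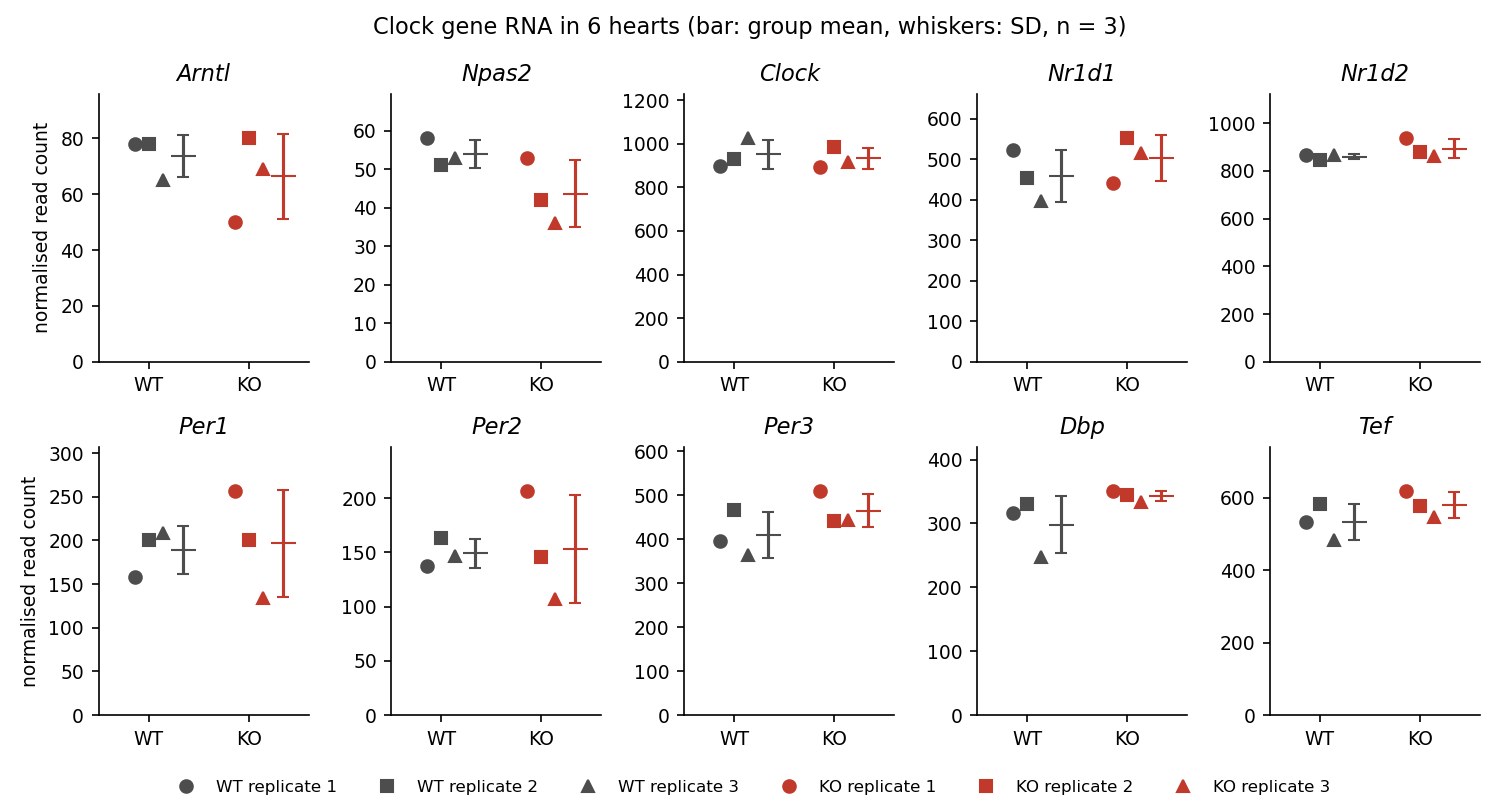
Normalised read counts of the 10 members are plotted for each KO and WT heart, with the mean and SD of each group. Groups overlap for every member but *Dbp*, whose KO values of 334 to 350 lie above the WT values of 247 to 330.

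Of the repressors of *Arntl*, *Nr1d1* (ENSMUSG00000020889, chromosome 11, 98767932 to 98775333, minus strand) had counts of 441, 552 and 516 in KO and 524, 454 and 396 in WT. KO replicate 2 was the highest heart and WT replicate 3 the lowest, and the groups overlapped. Its log2 fold change was 0.14 (SE 0.09, limma adjusted p = 0.894), with a 95% interval of -0.06 to 0.33. It was 0.038 without WT replicate 3 and 0.24 without WT replicate 1. The end of *Nr1d1* overlaps that of *Thra* on the other strand, and reads had been counted by strand. *Nr1d2* (ENSMUSG00000021775, chromosome 14, 18204054 to 18239127, minus strand) was the steadiest member, with counts of 937, 879 and 861 in KO and 865, 847 and 867 in WT. Its highest heart, KO replicate 1, was 1.11 times the lowest. Its estimate was 0.05 on the log2 scale (SE 0.06, limma adjusted p = 0.944), with a 95% interval of -0.07 to 0.17.

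The period genes encode the inhibitors of the loop, and *Per1* and *Per2* also respond acutely to glucocorticoids and other signals. *Per1* (ENSMUSG00000020893, chromosome 11, 69095217 to 69109960, plus strand) had counts of 256, 200 and 134 in KO and 158, 201 and 208 in WT. *Per2* (ENSMUSG00000055866, chromosome 1, 91415982 to 91459324, minus strand) had 206, 146 and 107 in KO and 137, 163 and 147 in WT. For both genes the highest and the lowest of all hearts were in the KO group, KO replicates 1 and 3, and the WT hearts lay between them. The means were nearly the same, at 197 ± 61.1 and 189 ± 27.1 for *Per1* and 153 ± 49.9 and 149 ± 13.1 for *Per2* in KO and WT (SD, n = 3). The log2 fold changes were 0.02 (SE 0.16, limma adjusted p = 0.996) for *Per1* and -0.01 (SE 0.16, limma adjusted p = 0.998) for *Per2*. The 95% intervals, -0.31 to 0.35 and -0.34 to 0.32, are wide and do not show that the genotypes were alike.

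*Per3* (ENSMUSG00000028957, chromosome 4, 151003652 to 151044665, minus strand) is the third member of the family. Its counts were 509, 442 and 445 in KO and 397, 467 and 365 in WT. KO replicate 1 was the highest heart and WT replicates 1 and 3 the lowest, while WT replicate 2 lay among the KO hearts. Its log2 fold change was 0.19 (SE 0.09, limma unadjusted p = 0.0392, adjusted p = 0.851), with a 95% interval of 0.01 to 0.37. Without WT replicate 3 it was 0.11.

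The output factors *Dbp* and *Tef* belong to the PAR family of leucine zipper proteins, which regulate metabolic and detoxification genes. *Dbp* (ENSMUSG00000059824, chromosome 7, 45705088 to 45710203, plus strand) had counts of 350, 344 and 334 in KO and 317, 330 and 247 in WT. The 3 KO hearts were above every WT heart, and KO replicate 3 was just above WT replicate 2. The log2 fold change was 0.21 (SE 0.09, limma unadjusted p = 0.0325, adjusted p = 0.851), with a 95% interval of 0.02 to 0.40. Without WT replicate 3, the lowest heart, it was 0.08 (unadjusted p = 0.297, limma). *Tef* (ENSMUSG00000022389, chromosome 15, 81802421 to 81826861, plus strand) had counts of 617, 577 and 547 in KO and 533, 583 and 483 in WT. The highest heart was again KO replicate 1 and the lowest again WT replicate 3. On the log2 scale the difference was 0.13 (SE 0.07, limma adjusted p = 0.879), with a 95% interval of -0.03 to 0.28.

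Some members varied between hearts more than counting error gives. The coefficient of variation over the 6 hearts was set against that of counting alone, computed from the estimated reads behind each value. It was at least 2 times the counting value for 5 members, against 859 of all 13753 genes (6.25%). The median ratio was 2.0 for the members and 1.1 for all genes. The clock outputs described further on had 6 such genes among 11 tested and a median of 2.2, so this spread was not particular to the members. The ratio grows with the number of reads, and the levels of the members were not matched to those of the other genes. *Per1* varied most, with a coefficient of 22.0% against 7.21% from counting, a ratio of 3.05. *Nr1d1* followed with 12.4% against 4.57%, *Per2* with 21.6% against 8.15%, *Per3* with 11.6% against 4.79% and *Dbp* with 11.8% against 5.60%. For *Arntl* (16.3% against 12%) and *Npas2* (16.8% against 14.3%) the spread was little more than counting error, so that their differences between hearts were hardly detectable at this depth. *Nr1d2* was also near its counting error, at 3.61% against 3.39%.

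Each gene was then centred on its mean over the 6 hearts on the log2(value + 1) scale to place the hearts between the opposed sets. In KO replicate 1, 6 of 7 opposite-phase genes were above their mean and 2 of 3 morning-phase genes below, with mean deviations of 0.20 and -0.13. WT replicates 1 and 3 had the reverse arrangement, with 1 of 7 opposite-phase genes above their mean in each, mean deviations of -0.06 and -0.14, and morning-phase deviations of 0.12 and 0.06. The other hearts did not show opposed sets. KO replicate 2 and WT replicate 2 were slightly above the mean for both sets, with 6 and 5 of 7 opposite-phase genes above their mean, and KO replicate 3 was below it for both, at -0.15 and -0.11.

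**Figure D3:**
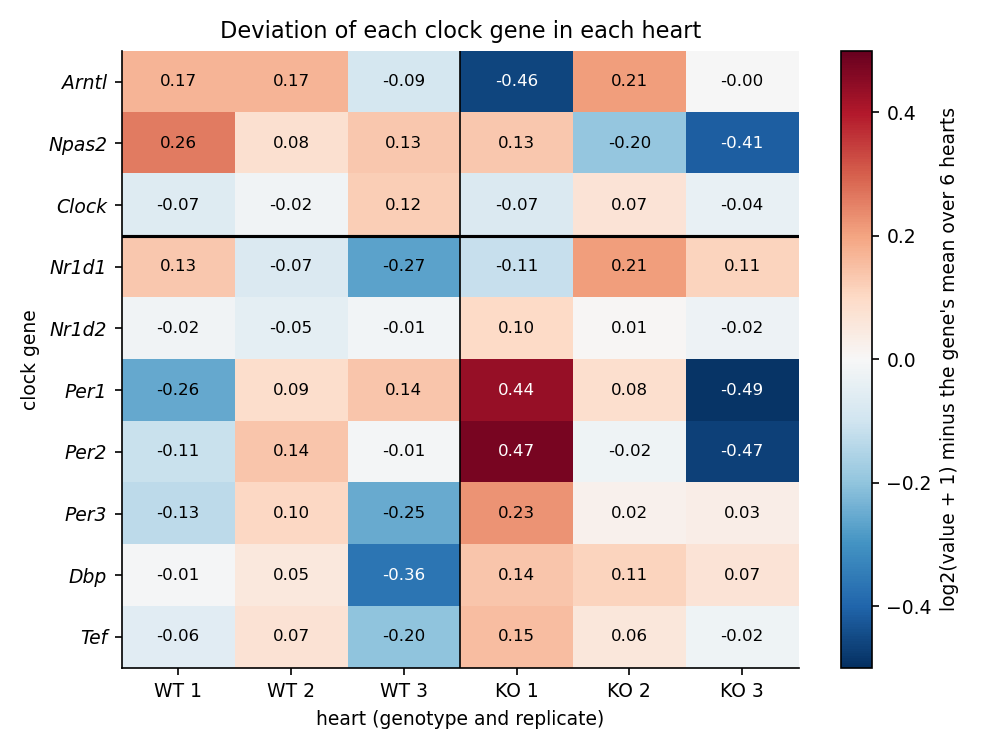
Deviations of the 10 members from their own mean over the hearts are shown for each heart as log2 differences. KO replicate 1 shows *Arntl* below its mean with 6 of 7 opposite-phase genes above theirs, and WT replicates 1 and 3 show 1 of 7 above in each.

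The difference between the mean deviations, morning minus opposite, was -0.33, -0.04 and -0.04 in KO and 0.19, 0.03 and 0.20 in WT, so every KO heart was below every WT heart. The group means were -0.14 ± 0.17 in KO and 0.14 ± 0.09 in WT (SD, n = 3). The difference of -0.27 on the log2 scale corresponds to a ratio of 0.827 and compares with a pooled SD of 0.14. KO replicate 2 and WT replicate 2 were only a small step apart, at -0.04 and 0.03. Without KO replicate 1 the difference was -0.18, and without *Npas2* it was -0.20. Since the genes were chosen with results of these data known, the difference is given as a description, without a test. The hour of collection is the variable these genes are known to follow, and its part in the difference was not tested. KO replicate 1, the heart with the lowest value, also had the lowest sums for 5 cell type lists as given above. All 6 cardiomyocyte markers had lower estimates in KO than in WT. Their summed count in WT replicate 3 (94582) still lay within the KO range of 90998 to 95261. The highest sum was that of WT replicate 1 (115997), the library with the fewest estimated reads (2.59 M). The part of these sums and markers, and of depth, in the difference was not tested.

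**Figure D4:**
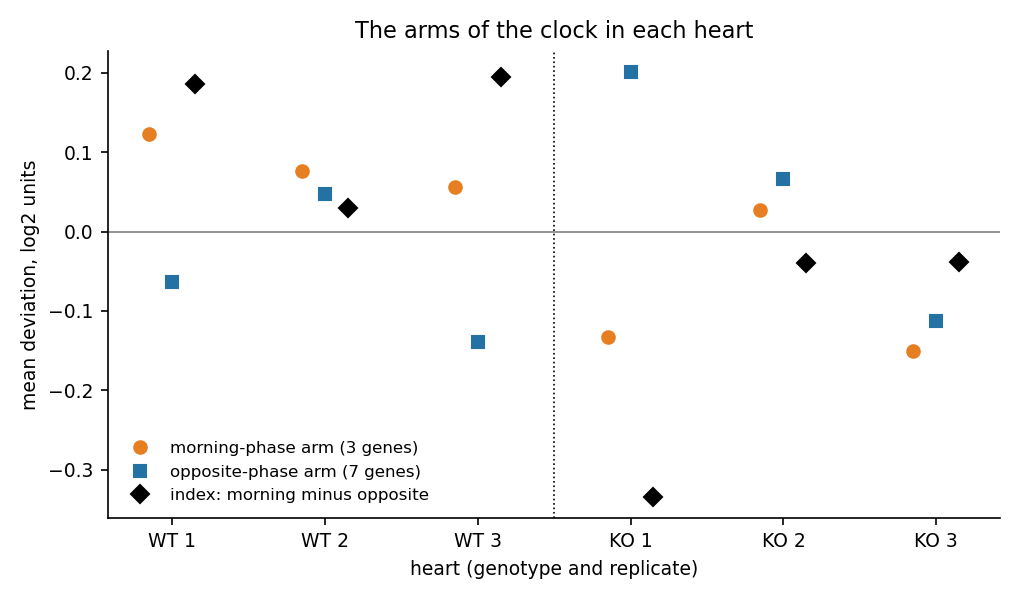
The mean log2 deviation of the 3 morning-phase genes (circles), that of the 7 opposite-phase genes (squares) and the difference between them (diamonds) are plotted for each heart. The difference lies between -0.33 and -0.04 in the KO hearts and between 0.03 and 0.20 in the WT hearts.

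Ratios within a heart use the same genes as the difference above and so are no separate evidence. Per kilobase of exon, *Nr1d1* exceeded *Arntl* by 21.6-, 16.9- and 18.3-fold in KO and by 16.4-, 14.2- and 14.9-fold in WT. The groups did not overlap, with means of 18.9 ± 2.41 and 15.2 ± 1.13 (SD, n = 3). The ratio of *Dbp* to *Arntl* was 17.6, 10.8 and 12.2 in KO and 10.2, 10.6 and 9.55 in WT, also without overlap. In contrast, the ratio of *Nr1d2* to *Arntl* was 26.1, 15.3 and 17.4 in KO and 15.4, 15.1 and 18.6 in WT and overlapped. In each of the 3 ratios KO replicate 1 was the highest heart, which goes with its low *Arntl* count.

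Likeness between the members is given here as correlations over 6 hearts on the log2 scale. The genes share their libraries and their scaling, and the coefficients are descriptions only. Of 45 pairs, 24 were positive and 21 negative, with a median Pearson r of 0.15. Between the morning and the opposite set 15 of 21 pairs were negative, with a median of -0.27, and within the opposite set 17 of 21 were positive, with a median of 0.47. A check left out the 2 hearts farthest from the median of the first gene of each pair, in the order of members above. It narrows the range of that gene, which by itself can weaken r. In this check, 13 of 21 pairs between the sets were negative (median -0.042) and 10 of 21 within the opposite set were positive (median -0.0013). Neither median kept its size. Within the morning set the 3 coefficients lay between -0.17 and 0.22, with 1 positive and a median of -0.10. Without the 2 farthest hearts 2 of the 3 were positive, with a median of 0.43. The median of all 45 pairs became -0.014 without them.

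The closest pair was *Per3* with *Tef* (r = 0.96, rho = 0.94), and r was 0.83 without the 2 hearts farthest from the median of *Per3*. *Dbp* went with both, with r = 0.90 and rho = 0.83 for *Tef* and r = 0.85 and rho = 0.77 for *Per3*, and 0.68 and 0.65 without the 2 farthest hearts. These 3 genes formed a set that was highest in KO replicate 1 and lowest in WT replicate 3. *Per1* and *Per2* formed another pair (r = 0.94, rho = 0.94), with r = 0.67 without the 2 farthest hearts. The pair did not follow *Nr1d1*, since *Per1* and *Nr1d1* had r = -0.56 and rho = -0.71. *Arntl* and its repressor *Nr1d2* had r = -0.83 but rho = -0.32, and r was 0.24 without the 2 farthest hearts, so the relation did not hold without those hearts. *Arntl* and *Nr1d1* had r = 0.56 and rho = 0.84, and r was 0.04 without the 2 farthest hearts.

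Other lists were set beside these 2 sets. The 2 farthest hearts are here those farthest from the median of the mean of the set. *Usp2*, a clock-driven deubiquitinase, had counts of 550, 508 and 473 in KO and 465, 506 and 404 in WT and followed the mean of *Per3*, *Dbp* and *Tef* (r = 0.98, rho = 0.94, and r = 0.88 without the 2 farthest hearts). It was chosen after its values were seen as the closest of 11 tested clock outputs, whose r lay between 0.07 and 0.98 with a median of 0.34. Without the 2 farthest hearts 6 of the 11 were positive and 5 negative. For *Per1* and *Per2*, 7 glucocorticoid-responsive genes had summed counts of 1310, 1243 and 893 in KO and 1133, 1118 and 1281 in WT, lowest in KO replicate 3 and highest in KO replicate 1. Without *Zbtb16* the other 6 genes summed to 686, 737 and 620 in KO and 634, 624 and 774 in WT, with KO replicate 3 still lowest but WT replicate 3 highest. *Tsc22d3* (GILZ), an anti-inflammatory glucocorticoid target, had 209, 189 and 163 in KO and 180, 196 and 220 in WT (r = 0.83 with the mean of *Per1* and *Per2*, rho = 0.83, and r = 0.65 without the 2 farthest hearts). *Zbtb16*, another such target, had 624, 506 and 273 in KO and 499, 494 and 507 in WT, and its r of 0.89 became 0.04 without the 2 farthest hearts. In the opposite direction, *Mt2* (r = -0.79, rho = -0.75) and *Cdkn1a* (r = -0.69, rho = -0.75) were high where the period genes were low, with r of -0.36 and -0.48 without the 2 farthest hearts. The other 3 genes of the list had r of 0.71 (*Fkbp5*), 0.48 (*Errfi1*) and 0.33 (*Sgk1*), so the list did not move as one. These genes were also named after their values were seen. The summed counts of 9 immediate early genes were 749, 684 and 701 in KO and 581, 649 and 574 in WT and did not overlap. Of the 8 tested, *Jun* was the 1 gene without overlap, against 9.07% of all tested genes. An unadjusted p under 0.05 was found for 2 of the 8, *Jun* and *Fos*, against 5.74% of all tested genes, and both were named after their values were seen. *Jun* had a log2 fold change of 0.32 (SE 0.08, limma unadjusted p = 0.00071, adjusted p = 0.518). *Fos* had the largest estimate of the list, with counts of 44, 19 and 54 in KO and 10, 23 and 15 in WT and a log2 fold change of 1.2 (SE 0.33, limma unadjusted p = 0.0022, adjusted p = 0.689). The 8 genes other than *Jun* summed to 417, 328 and 386 in KO and 297, 377 and 327 in WT, which overlapped. Those of 5 atrial markers were 525, 628 and 436 in KO and 450, 538 and 622 in WT, lowest in KO replicate 3 and WT replicate 1, which were also the lowest hearts for *Per1*. The part of glucocorticoid signalling, handling and atrial tissue in the period genes was not tested.

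**Figure D5:**
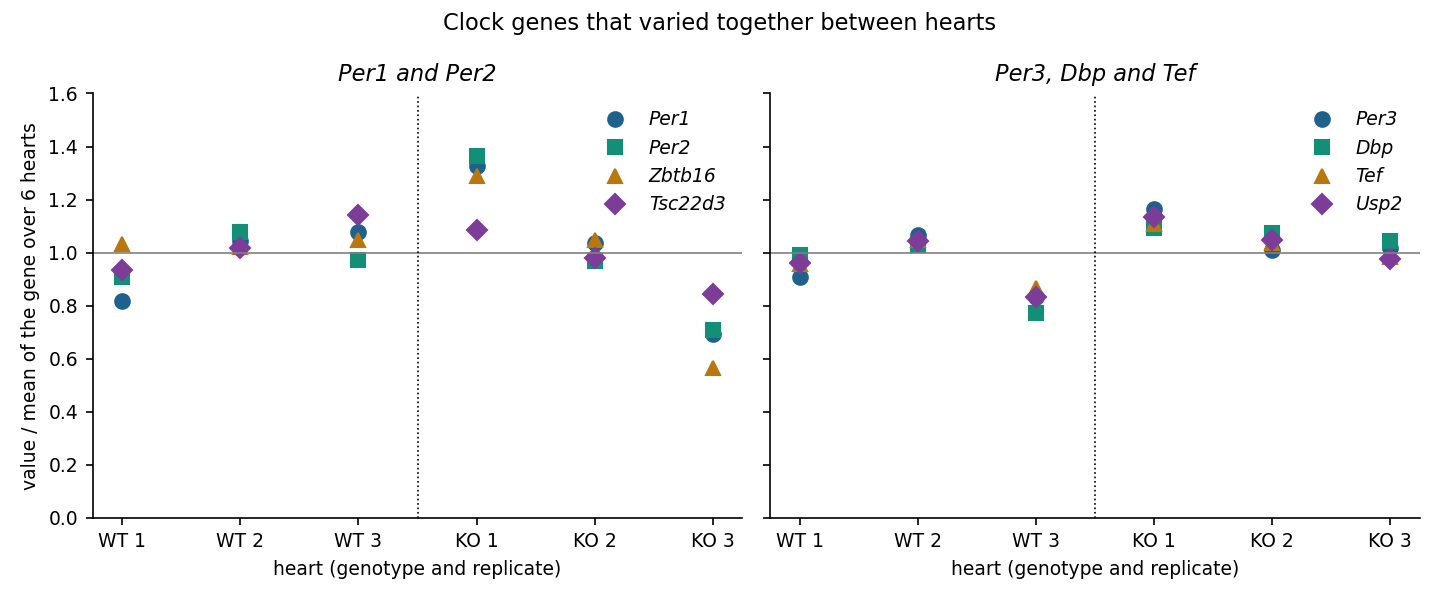
Values relative to the mean over the hearts are plotted for the *Per3*, *Dbp* and *Tef* set with *Usp2* and for *Per1* and *Per2* with *Tsc22d3* and *Zbtb16*, by heart. The first set is lowest in WT replicate 3, and the second is highest or nearly so in KO replicate 1 and lowest in KO replicate 3.

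Beyond the members, 18 other genes of the clock were examined, covering the cryptochromes, ROR receptors, DEC repressors, kinases and ubiquitin ligases. All 18 were tested, of which 10 had a higher and 8 a lower estimate in KO. Their median was 0.04 on the log2 scale. With limma, 0 of 18 had an adjusted p under 0.05 and 5 had an unadjusted p under 0.05, of which 4 were higher and 1 lower in KO, a share to be read against 5.74% of all tested genes. Groups did not overlap for 5 genes, namely *Bhlhe41*, *Hlf* and *Ciart* above WT and *Cry1* and *Gsk3b* below, the last named after its values were seen, against 9.07% of all tested genes. The list was drawn up with earlier results known.

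Of these 18 genes, *Ciart* had the largest estimate, with counts of 56, 31 and 34 in KO and 28, 27 and 20 in WT and a log2 fold change of 0.63 (SE 0.24, limma unadjusted p = 0.0148, adjusted p = 0.807). KO replicate 1 stood well above the rest, and without it the estimate was 0.38. *Hlf*, the third PAR leucine zipper gene, had 298, 295 and 284 in KO and 259, 248 and 235 in WT, a log2 fold change of 0.24 (SE 0.08, limma unadjusted p = 0.0053, adjusted p = 0.762). The lowest KO heart, at 284, was above the highest WT heart, at 259.

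*Bhlhe41* and *Bhlhe40* encode DEC2 and DEC1, repressors that compete at E-boxes. *Bhlhe41* had 302, 300 and 321 in KO and 283, 261 and 243 in WT, a log2 fold change of 0.23 (SE 0.08, limma adjusted p = 0.772). *Bhlhe40* had 346 to 404 in KO and 267 to 394 in WT, a log2 fold change of 0.28 (SE 0.11, limma adjusted p = 0.807), and overlapped through WT replicate 1. That estimate was 0.45 without WT replicate 1 and 0.17 without WT replicate 3. *Rorb*, a receptor acting at ROR elements, had 41, 27 and 48 in KO and 48, 49 and 63 in WT, a log2 fold change of -0.48 (SE 0.21, limma adjusted p = 0.851), the 2 groups sharing a value of 48, and it was -0.25 without KO replicate 2. *Arntl2*, the paralog of *Arntl*, had 44, 48 and 24 in KO and 29, 46 and 32 in WT with no separation. *Cry1*, a cryptochrome inhibitor noted after its values were seen, had 40, 51 and 47 in KO and 57, 58 and 59 in WT, a log2 fold change of -0.33 (SE 0.16, limma unadjusted p = 0.0505).

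Of 12 genes that are outputs of the cardiac or peripheral clock, 11 were tested and *Lonrf3* was under the filter, with counts of 8, 6 and 8 in KO and 16, 9 and 6 in WT. The estimate was higher in KO for 7 and lower for 4, and the median was 0.09 on the log2 scale. With limma, 0 of 11 had an adjusted p under 0.05, and 0 had groups without overlap. An unadjusted p under 0.05 was found for 2, against 5.74% of all tested genes. *Pdk4*, which restrains glucose oxidation, had 1682, 1885 and 1998 in KO and 1337, 1574 and 1742 in WT, a log2 fold change of 0.26 (SE 0.08, limma unadjusted p = 0.0034, adjusted p = 0.744). *Ucp3*, a mitochondrial carrier, had 534, 610 and 577 in KO and 304, 458 and 576 in WT, a log2 fold change of 0.41 (SE 0.14, limma unadjusted p = 0.0083, adjusted p = 0.772). Without WT replicate 1, the lowest heart for both, the estimate was 0.16 for *Pdk4* and 0.16 for *Ucp3*. In contrast, WT replicate 3, the lowest heart for *Dbp*, *Tef* and *Per3*, was among the KO values.

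The genes whose pattern over the hearts was most like the morning-minus-opposite difference were sought among 92 non-members with a mean of at least 50 and at least a 2-fold range. The closest was *Slc37a2*, a sugar phosphate transporter gene, with r = 0.91 and counts of 35, 61 and 71 in KO and 70, 69 and 77 in WT. It was low in KO replicate 1, as the difference itself was. Next were *Gm44021* (r = 0.72), CT010467.1 (r = 0.71), *Gm44022* (r = 0.64) and *Sox9* (r = 0.63). CT010467.1 is annotated as rRNA, a class whose reads the processing was to remove. In the other direction stood *Gm43581* (r = -0.79), *Casq1* (r = -0.70), *2410004B18Rik* (r = -0.68), *A930033H14Rik* (r = -0.67) and *H19* (r = -0.62). Each r is over 6 hearts and is the extreme of 92 computed, given as a description.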

How the data were processed

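RNA of 6 mouse hearts (3 KO, 3 WT) was sequenced, with 1 stranded total RNA library a heart. Per the labels and the submitters' processing notes, reads were trimmed (Trimmomatic 0.39), aligned to mm10/GRCm38 (STAR 2.6.1d), cleared of duplicates (Picard 2.21.1), of multi-mapping, ribosomal and mitochondrial reads, and counted by strand over exons (featureCounts 1.6.5). The authors normalised the counts with DESeq2 1.18.1, and the deposited score of each gene is that normalised read count rounded to a whole number. Reads lost at these steps lower the values of genes with close copies. What the removal of duplicates did to the values of abundant genes was not tested. Raw counts were not used here, so no count model was fitted.

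Size factors were recovered from the pattern that rounding leaves in the values. They were 0.795 to 1.149, which gives 2.59 to 3.62 M reads per library. On the deposited scale 3 reads equal 2.61 to 3.77. Counting errors derived from these reads cover counting only, because no molecular identifiers mark the original molecules. Values were taken as log2(value + 1), genes with a mean of at least 10 were kept (13753 of 21776), and KO was compared with WT by limma 3.58.1 in R 4.3.3 (trend in eBayes, two-sided, no covariate, 4 residual and 15.4 prior degrees of freedom, Benjamini-Hochberg over all tested genes, threshold 0.05). The procedure was tested on simulated data. Levels per kilobase used the union of GENCODE M21 exons, and promoters were RefSeq windows of 300 bases. Values and plots were computed in Python 3.11.15.

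Members and lists were chosen with earlier results of these data known. Named genes were the 10 members, *Trdn-as* and *Trdn*, the listed clock and output genes with a highest heart at least 2 times the lowest or an unadjusted p under 0.05, and the 5 genes most and least correlated with the morning-minus-opposite difference. Genes named otherwise are said to be so. Alternatives were total scaling, median-of-ratios scaling, no filter, at least 10 in every library, a pseudocount of 0.1, limma-voom, a replicate block and leaving out each library.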

Additional observations from a re-analysis of the deposited data

How the results depend on the processing

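In each of 13 alternative fits 0 of 10 members passed the adjusted threshold. The count at an unadjusted p under 0.05 was 2 in the reported fit and 3 with limma-voom, which added *Tef*. It ranged from 0 without WT replicate 3 to 3 without KO replicate 3 or WT replicate 2 when single libraries were left out. Without KO replicate 1 the 2 members were *Npas2* and *Nr1d1*, and without WT replicate 1 they were *Nr1d1* and *Dbp*. Over all genes the count at an unadjusted p under 0.05 was 790. It was 1182 without WT replicate 3, 507 without KO replicate 3 and 652 without WT replicate 2. In these fits it moved against the count of the members. Without KO replicate 2 both counts fell, to 641 genes and 1 member, and with limma-voom both rose, to 827 and 3. The genes passing adjustment numbered 4, and 2 to 32 without single libraries, with 32 without KO replicate 1. Hearts with the same replicate number did not deviate together, with correlations of 0.05, -0.07 and -0.03. With the replicate block the count was 2, with 0 members passing adjustment, and 4 genes were called over all genes as without it. The morning-minus-opposite difference kept its sign in all 10 alternatives and ranged from -0.33 to -0.18 when hearts were left out. Leaving out a heart could not change the sign, because every KO heart lay below every WT heart. Scaling nearly cancels in this difference, so its sign was fixed in advance in those alternatives too.

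The estimates of 4 members changed sign in at least 1 alternative. For *Per2* the estimate was 0.014 with total scaling and 0.015 with limma-voom, and it ranged from -0.25 to 0.22 without single libraries. The range without single libraries was -0.20 to 0.27 for *Per1*, -0.067 to 0.029 for *Clock* and -0.32 to 0.017 for *Arntl*. *Dbp* kept its sign from 0.08 to 0.29, *Per3* from 0.11 to 0.29, *Tef* from 0.06 to 0.19 and *Npas2* from -0.46 to -0.19. *Nr1d1* kept its sign from 0.038 to 0.24 and *Nr1d2* from 0.017 to 0.078. Total scaling moved the median of all genes to 0.02. Depth limits *Arntl* and *Npas2*, whose spread was little above counting error, and the cause of the changes without single libraries was not tested.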
